A study of Mus musculus with 22 samples.

Results

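The cytochrome P450 (Cyp) genes were examined in medullary epithelial cells (MECs) sorted from thymus of mice, on the 22 arrays of a study of the regulator Aire. Members were all genes whose whole symbol was Cyp, 1 or 2 digits, a letter and digits, such as Cyp1a2. The rule found 81 of the 19752 genes measured with 1 symbol, and each member had 1 probe. By textbook role, 51 belonged to families 1 to 3, which mostly oxidise drugs and other foreign compounds, 13 to family 4 (fatty acids and eicosanoids), 5 to steroid hormone synthesis, 6 to cholesterol and bile acid metabolism, 2 to vitamin D, 3 to retinoic acid clearance and 1 was an orphan.

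P450 enzymes are heme proteins of the endoplasmic reticulum or mitochondrion that insert an oxygen atom into a substrate with electrons passed on by a reductase. Most of the drug-metabolising members are known from liver, intestine and airway, and the steroid-making members from adrenal gland and gonads, where nuclear receptors and the aryl hydrocarbon receptor (AhR) control many of them. MECs transcribe many such genes of peripheral tissues at a low level, in large part through Aire, and display the products to developing T cells. Steroid-making P450 enzymes are known autoantigens in people who lack AIRE.

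The sort took live (DAPI-) CD45- cells, Ly51 low and MHCII high, from treated C57Bl/6 mice. Wild-type (WT, Aire+/+) and knockout (KO, Aire-/-) mice received DMSO as vehicle, Etopo, Topo or both (EtopoTopo). The 2 drug names are not spelled out in the labels, and they are usual short forms of etoposide, which poisons type II topoisomerases, and topotecan, which poisons topoisomerase I. Each group had 3 arrays except KO Etopo and KO EtopoTopo with 2. Mice were 6 weeks old by label for 15 arrays and 4 weeks old for all 5 EtopoTopo arrays, for WT DMSO 3 and for WT Etopo 3, so for the combination the age and the drugs cannot be told apart in KO cells, where no DMSO array came from the younger age. The titles of WT EtopoTopo 1 and 2 name both drugs while their treatment label names Etopo, and the titles were followed. The labels do not say whether 1 array holds RNA of 1 animal or of several, and the spread behind each p-value may therefore be partly technical.

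Values are log2 of the deposited intensity, and the number of arrays limits their precision. The median intensity of an array was 236.15 to 263.57, and replicate arrays correlated at 0.963 to 0.997 over all probes. KO EtopoTopo 1 stood apart by a narrow spread, with 3.89 log2 units across the middle of its probes (lowest and highest tail left out) against 4.32 to 5.01 elsewhere. Transcripts of thymocytes were high on WT DMSO 1 (12.35, the log2 of the summed intensity of 14 markers) and KO DMSO 1 (12.75), and each of the remaining 20 arrays lay between 10.999 and 11.68. All 12 MEC markers were measured, and their summed level was 15.09 to 15.89 on every array. WT DMSO 1, WT Etopo 2 and WT Topo 2 were labelled male, yet Xist was 11.39 to 12.57 on all 22 arrays and the highest Y-linked gene reached no more than 6.07. Several hepatic P450 genes are known to differ between the sexes, so counts are also given without those 3 arrays. The 1190 olfactory and vomeronasal receptor genes, which few cells outside sensory epithelia express, served as a reading of dim probes: the median of their mean levels was 5.32 and the 95th percentile 7.10. The Aire probe does not test the deletion: it read 12.24 to 12.44 in WT DMSO and 12.88 to 12.96 in KO DMSO. In WT cells its reading changed by -0.53 ± 0.25 with Topo and -0.63 ± 0.25 with both drugs (limma adjusted p = 0.414 and 0.105).

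The 4 promoter windows below belong to 3 neighbouring P450 genes of chromosome 9 and to Cyp2f2. The 3 neighbours were called lower without Aire, Cyp1a1 only narrowly, and Cyp2f2 fell without Aire and rose with Topo. Each window runs from 250 bases before to 50 bases after the RefSeq start on assembly GRCm38.p6, 5′ to 3′ along the gene. Capitals mark matches, on either strand, to TATAA (the core of a TATA box), GCGTG (the core of the element bound by AhR) and AGGTCA (a core bound by nuclear receptors). The windows lie at chr9:57683606-57683905 (minus strand) for Cyp1a2, chr9:57697363-57697662 (plus strand) for Cyp1a1, chr9:57997774-57998073 (plus strand) for Cyp11a1 and chr7:27119705-27120004 (plus strand) for Cyp2f2.
Cyp1a2: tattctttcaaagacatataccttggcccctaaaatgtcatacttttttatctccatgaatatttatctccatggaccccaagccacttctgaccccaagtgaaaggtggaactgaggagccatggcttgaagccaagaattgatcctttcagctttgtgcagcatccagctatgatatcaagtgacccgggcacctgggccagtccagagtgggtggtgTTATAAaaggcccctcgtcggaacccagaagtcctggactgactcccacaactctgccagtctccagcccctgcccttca
Cyp1a1: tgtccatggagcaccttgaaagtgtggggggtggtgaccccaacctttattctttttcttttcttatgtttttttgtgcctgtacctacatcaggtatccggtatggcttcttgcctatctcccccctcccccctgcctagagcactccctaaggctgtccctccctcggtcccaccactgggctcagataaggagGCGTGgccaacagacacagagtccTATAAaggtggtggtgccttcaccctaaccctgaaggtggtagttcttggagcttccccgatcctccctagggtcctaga
Cyp11a1: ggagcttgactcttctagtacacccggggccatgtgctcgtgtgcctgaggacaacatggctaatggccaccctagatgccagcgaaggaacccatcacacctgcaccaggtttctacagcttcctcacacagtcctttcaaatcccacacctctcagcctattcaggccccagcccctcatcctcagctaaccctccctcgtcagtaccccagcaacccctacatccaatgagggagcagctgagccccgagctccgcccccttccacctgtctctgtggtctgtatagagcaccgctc
Cyp2f2: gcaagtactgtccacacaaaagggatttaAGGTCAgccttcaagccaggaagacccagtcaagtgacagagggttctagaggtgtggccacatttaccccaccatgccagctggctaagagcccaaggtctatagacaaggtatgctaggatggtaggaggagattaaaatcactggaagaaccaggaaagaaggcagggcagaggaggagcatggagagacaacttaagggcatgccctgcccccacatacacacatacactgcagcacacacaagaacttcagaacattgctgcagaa

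The Cyp1a2 window holds TATAA 29 bases before the start, and its mirror match on the opposite strand begins 1 base earlier and overlaps it. The Cyp1a1 window holds TATAA 30 bases before the start and GCGTG 54 bases before it. The Cyp2f2 window holds AGGTCA 221 bases before the start, and the Cyp11a1 window holds none of the 3 motifs. Windows were listed for 62 of the 81 members. TATAA occurred in 30 of them (48.4%) against 25.5% of 27025 windows of all genes, AGGTCA in 24.2% against 16%, and GCGTG in 22.6% against 32.5%. The median number of CG dinucleotides was 2.5 per member window and 7 per window of all genes. The 23 listed members that fell without Aire held TATAA in 47.8% of windows and the other 39 in 48.7%. These matches describe the letters of the windows and are not binding sites.

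Without Aire, in KO DMSO against WT DMSO, the family moved mainly downward: 29 members fell and 4 rose at a limma adjusted p under 0.05 over all genes. Over all genes, 19.4% were called, 12% lower and 7.4% higher, against 40.7%, 35.8% and 4.94% of members. The median member change was -0.29 against -0.01 for all genes, and 71 of 81 members lay below 0. The receptor median was 5.04 to 5.40 on WT DMSO arrays and 5.13 to 5.16 on KO DMSO arrays. The spread across the middle of the probes was 4.56 to 4.92 and 4.92 to 5.01. The part of these differences between arrays in the members' falls was not tested. In 38 members every KO array lay below every WT array, against 18.2% of all genes, and in 5 every KO array lay above, against 13.6%. All of the 81 changes appear in the plot of KO against WT change by class. Of the 29, 12 (Cyp1a2, Cyp11a1, Cyp2f2, Cyp4a14, Cyp3a11, Cyp2e1, Cyp4f14, Cyp2d26, Cyp2b10, Cyp11b1, Cyp27b1 and Cyp2b23) stayed lower in all 15 settings tried, and of the 4, Cyp27a1 and Cyp7b1 stayed higher. Among these settings, averaging the probes of a gene or widening the symbol rule could not change the values of a member with 1 probe. The count called was 19 after quantile normalization (16 lower, 3 higher), 21 without KO DMSO 1, 19 without WT DMSO 2 and 28 without the arrays labelled male.

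**Figure D1:**
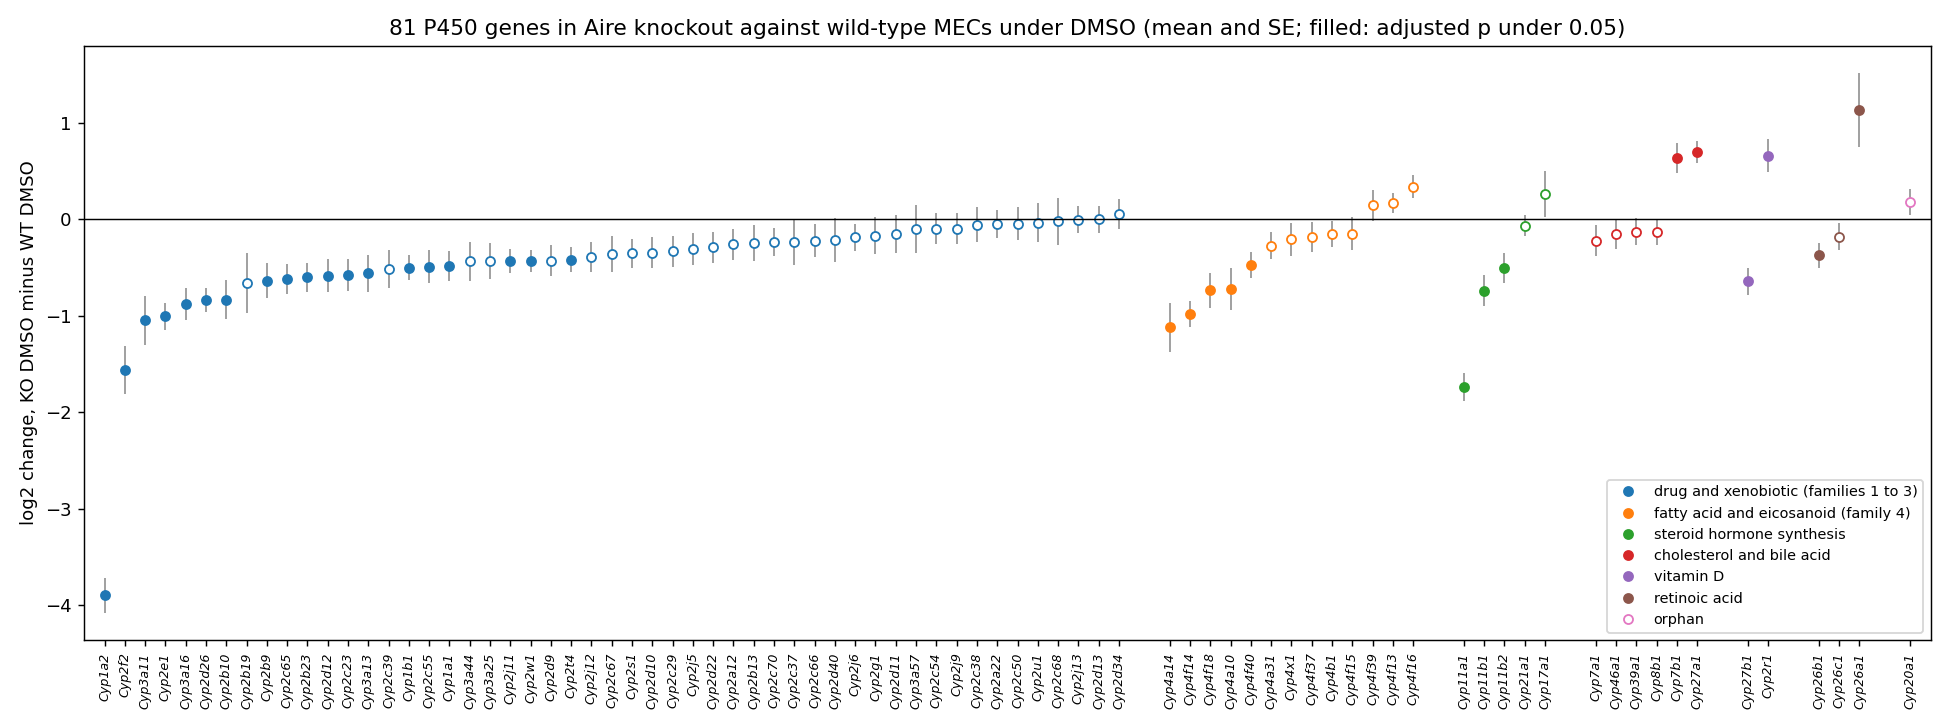
Change of each of the 81 P450 genes in KO DMSO against WT DMSO (y axis, log2 units, bars are SE of the fit, 3 arrays per group), grouped by role on the x axis. Filled points passed the test: 29 lie below 0 and 4 above, and Cyp1a2 is lowest at -3.90.

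Cyp1a2, an AhR target of liver that oxidises caffeine and aromatic amines, fell furthest. It read 9.98, 9.57 and 9.71 on the WT DMSO arrays and 5.88, 5.94 and 5.75 on the KO DMSO arrays. The groups lay far apart, a fall by 3.90 ± 0.18 (SE) on the log2 scale (limma adjusted p = 1.27e-12). The KO mean of 5.86 lay within the levels of the receptor genes, where a probe cannot show how much lower its transcript is, so the fall is best read as a lower bound. Every KO array of any treatment lay between 5.75 and 6.65, below every WT array.

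Cyp1a1, its neighbour and the other classical AhR target, read 6.07, 6.70 and 6.65 in WT DMSO and 5.98, 6.07 and 5.91 in KO DMSO. WT DMSO 1 lay as low as the KO arrays, and the groups overlapped. The fall by 0.48 ± 0.16 passed the test narrowly (limma adjusted p = 0.0319). The call for Cyp1a1 was lost after quantile normalization, with age as a covariate and with these groups alone. Cyp1b1, the third AhR-controlled member, fell by 0.50 ± 0.13 (limma adjusted p = 0.00827).

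Cyp11a1, the mitochondrial enzyme that makes pregnenolone from cholesterol as the first step of steroid synthesis, is the next P450 gene along chromosome 9. It read 8.42, 8.06 and 8.14 in WT DMSO and 6.49, 6.43 and 6.48 in KO DMSO. The KO arrays were tight and all lower, a fall by 1.74 ± 0.15 (limma adjusted p = 1.04e-08). Its KO mean of 6.47 also lay below 7.10, as did those of Cyp11b1, Cyp2e1, Cyp3a11, Cyp3a16, Cyp2b10, Cyp4a14, Cyp4f14 and Cyp4f18. The WT DMSO means of Cyp2e1 (7.03), Cyp3a11 (6.77), Cyp3a16 (5.38) and Cyp4a14 (6.70) lay below 7.10 too, so both groups read dim. Of the 5 steroid-making members 3 fell: Cyp11a1, Cyp11b1 (the 11-beta-hydroxylase of the adrenal cortex, by 0.74 ± 0.16, adjusted p = 0.00171) and Cyp11b2 (aldosterone synthase, by 0.50 ± 0.16, adjusted p = 0.0261). Cyp21a1, the adrenal 21-hydroxylase, changed by -0.07 ± 0.11 (adjusted p = 0.758) and Cyp17a1, which makes androgen precursors, by 0.26 ± 0.24 (adjusted p = 0.538). Cyp11b1 and Cyp11b2 are near-identical copies, so their probes may share signal.

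**Figure D2:**
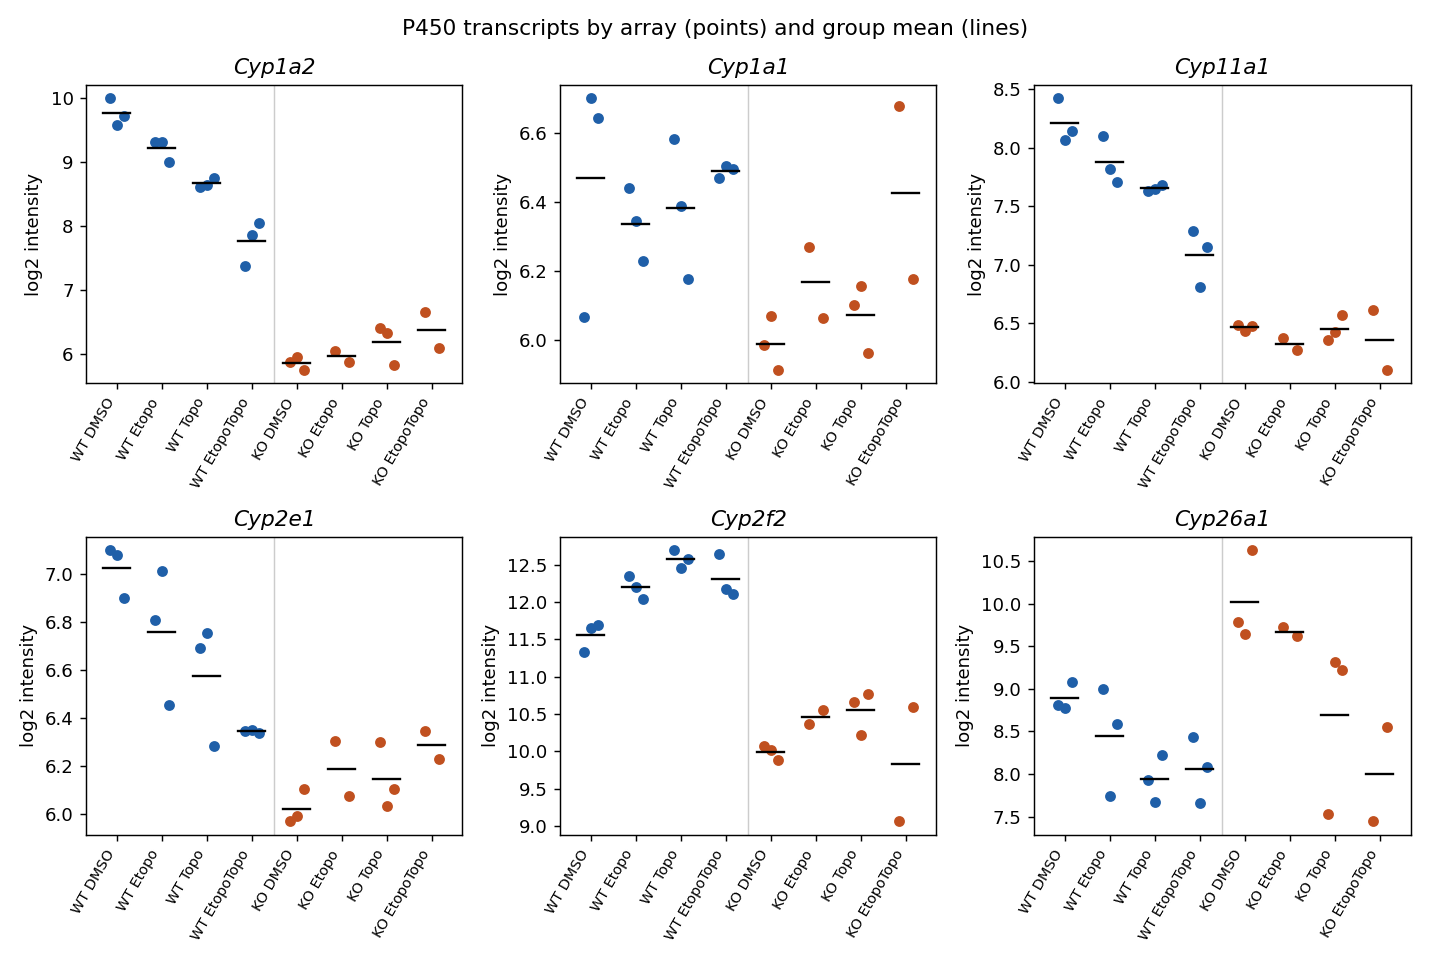
Log2 intensity (y axis) of 6 P450 genes on each array (points) in the 8 groups (x axis), with group means as lines. Cyp1a2 and Cyp11a1 step down from WT DMSO to WT EtopoTopo and are low in all KO groups, Cyp2f2 is higher in drug-treated WT arrays, and Cyp26a1 is highest in KO DMSO.

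Among the drug-metabolising members of families 1 to 3, 19 of 51 fell and 0 rose (limma), against 12% lower and 7.4% higher over all genes. At an unadjusted p under 0.05 (limma), 27 were lower and 0 higher, with no share of all genes given at that threshold. Cyp2f2, an airway club cell enzyme that activates naphthalene, read 11.33, 11.65 and 11.69 in WT DMSO and 10.07, 10.02 and 9.89 in KO DMSO. All KO arrays were lower, by 1.57 ± 0.25 or 2.96-fold (limma adjusted p = 7.18e-05). Cyp2e1, the liver enzyme that oxidises ethanol, read 7.10, 7.08 and 6.90 in WT DMSO and 5.97, 5.99 and 6.11 in KO DMSO. It fell by 1.01 ± 0.14 (limma adjusted p = 1.66e-05) with no overlap.

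Cyp3a11, the main drug-oxidising Cyp3a of mouse liver, read 7.05, 6.69 and 6.58 in WT DMSO and 5.91, 5.69 and 5.57 in KO DMSO. It fell by 1.05 ± 0.25 (limma adjusted p = 0.0047), its relative Cyp3a16 by 0.88 ± 0.16 (adjusted p = 0.000482) and Cyp3a13 by 0.56. The Cyp3a16 means of 5.38 in WT DMSO and 4.50 in KO DMSO lay near and below the receptor median of 5.32, so its size is uncertain. The other 3 Cyp3a members lay below 0 without passing the test. In the Cyp2b subfamily Cyp2b10, the classical target of the nuclear receptor CAR, fell by 0.83 ± 0.20 (adjusted p = 0.0045), and Cyp2b9 and Cyp2b23 fell by 0.63 and 0.60. Of 9 Cyp2d members 2 fell, Cyp2d26 by 0.84 ± 0.13 (adjusted p = 4.5e-05) and Cyp2d12 by 0.58 ± 0.17 (adjusted p = 0.0169). Of 13 Cyp2c members 3 fell, Cyp2c65, Cyp2c23 and Cyp2c55, by 0.49 to 0.62. The Cyp2c, Cyp2d, Cyp2j, Cyp3a and Cyp4a subfamilies are arrays of close copies whose probes may share signal, so single members there are uncertain.

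In family 4, 5 of 13 members fell and 0 rose (limma, unadjusted p under 0.05 for 1 higher). Over all genes 12% were called lower and 7.4% higher at the adjusted threshold. Cyp4a14, a PPAR-alpha target that hydroxylates fatty acids, read 6.71, 6.96 and 6.43 in WT DMSO and 5.41, 5.51 and 5.83 in KO DMSO. It fell by 1.12 ± 0.25 (limma adjusted p = 0.00265), with no overlap. Cyp4f14, which inactivates leukotriene B4, fell by 0.98 ± 0.13 (adjusted p = 1.1e-05), its relative Cyp4f18 by 0.74 ± 0.18 (adjusted p = 0.00593), and Cyp4a10 and Cyp4f40 by 0.73 and 0.47. Of the P450 symbols outside the rule, Cyp4a12a and Cyp4a12b, near-identical copies that act on arachidonic acid, fell by 2.21 and 1.79.

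The members that rose were of other roles. Cyp27a1, the mitochondrial sterol 27-hydroxylase, read 9.20, 9.0025 and 8.87 in WT DMSO and 9.62, 9.80 and 9.76 in KO DMSO. All KO arrays were higher, by 0.70 ± 0.12 (limma adjusted p = 0.000111). Cyp7b1, the oxysterol 7-alpha-hydroxylase, rose by 0.63 ± 0.16 (limma adjusted p = 0.00556), and these were the 2 of 6 cholesterol and bile acid members that passed. Cyp7a1, the rate-limiting enzyme of bile acid synthesis in liver, changed by -0.22 ± 0.16 (adjusted p = 0.399).

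Of the pair that activates vitamin D, the 25-hydroxylase Cyp2r1 rose by 0.66 ± 0.17 (limma adjusted p = 0.00698) and the 1-alpha-hydroxylase Cyp27b1 fell by 0.64 ± 0.14 (adjusted p = 0.00157). The call for Cyp2r1 was lost without KO DMSO 1 (0.47, adjusted p = 0.0609) and without WT DMSO 2 (0.50, adjusted p = 0.0656).

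Cyp26a1, which degrades retinoic acid, read 8.81, 8.78 and 9.08 in WT DMSO and 9.79, 9.64 and 10.63 in KO DMSO. It rose by 1.13 ± 0.39 (limma adjusted p = 0.0434), and KO DMSO 3 lay well above the other 2 KO arrays. Without KO DMSO 3 the change was 0.83 (adjusted p = 0.212), and the call was lost in 9 of 15 alternatives. Cyp26b1, which acts on the same substrate, fell by 0.37 ± 0.13 (adjusted p = 0.0492), and Cyp26c1 changed by -0.18 ± 0.14 (adjusted p = 0.432).

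Markers of other cell types were read on the same arrays. Thymocyte and tuft cell markers gave 0 calls of 14 and 0 of 13 (limma, unadjusted p under 0.05 for 0 and 2). Macrophage and dendritic cell markers gave 4 lower and 1 higher of 14, and B cell markers 3 lower and 1 higher of 7. Cortical epithelial markers gave 2 lower of 8, and stroma and endothelium 2 higher and 2 lower of 11. Over all genes 12% were called lower and 7.4% higher. The summed stroma and endothelium level was 12.15 to 12.25 in WT DMSO and 12.63 to 12.66 in KO DMSO, and the macrophage and dendritic cell level was 13.03 to 13.35 and 13.12 to 13.23. Their part in the P450 changes was not tested, and in bulk arrays fewer cells of a type and less RNA per cell cannot be told apart. Without WT DMSO 1 and KO DMSO 1, the arrays of high thymocyte signal, 28 members were called, with Cyp1a2 at -3.79.

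Many P450 genes lie in clusters of close copies. Members were put in 1 cluster where at most 40 places in the RefSeq gene order separated each from the next, and 8 clusters held 3 or more. On chromosome 9 all 3 of Cyp1a2, Cyp1a1 and Cyp11a1 were called lower, though the Cyp1a1 groups overlapped and its call was lost in several alternatives. On chromosome 7, 5 of 11 fell, among them Cyp2f2 and Cyp2t4 at one end. Cyp2g1, which works in olfactory mucosa and lies between them and the Cyp2b genes, changed by -0.17 ± 0.19 (limma adjusted p = 0.632). On chromosome 19, 2 of 14 fell and Cyp26a1 rose. In the Cyp2d cluster of chromosome 15, 2 of 9 fell, in the Cyp4f cluster of chromosome 17, 2 of 7, and in the Cyp3a cluster of chromosome 5, 2 of 5. The chromosome 4 clusters of Cyp2j and Cyp4 genes gave 1 of 6 and 2 of 5. Over all genes 12% were called lower, so several of these counts lie near the background.

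**Figure D3:**
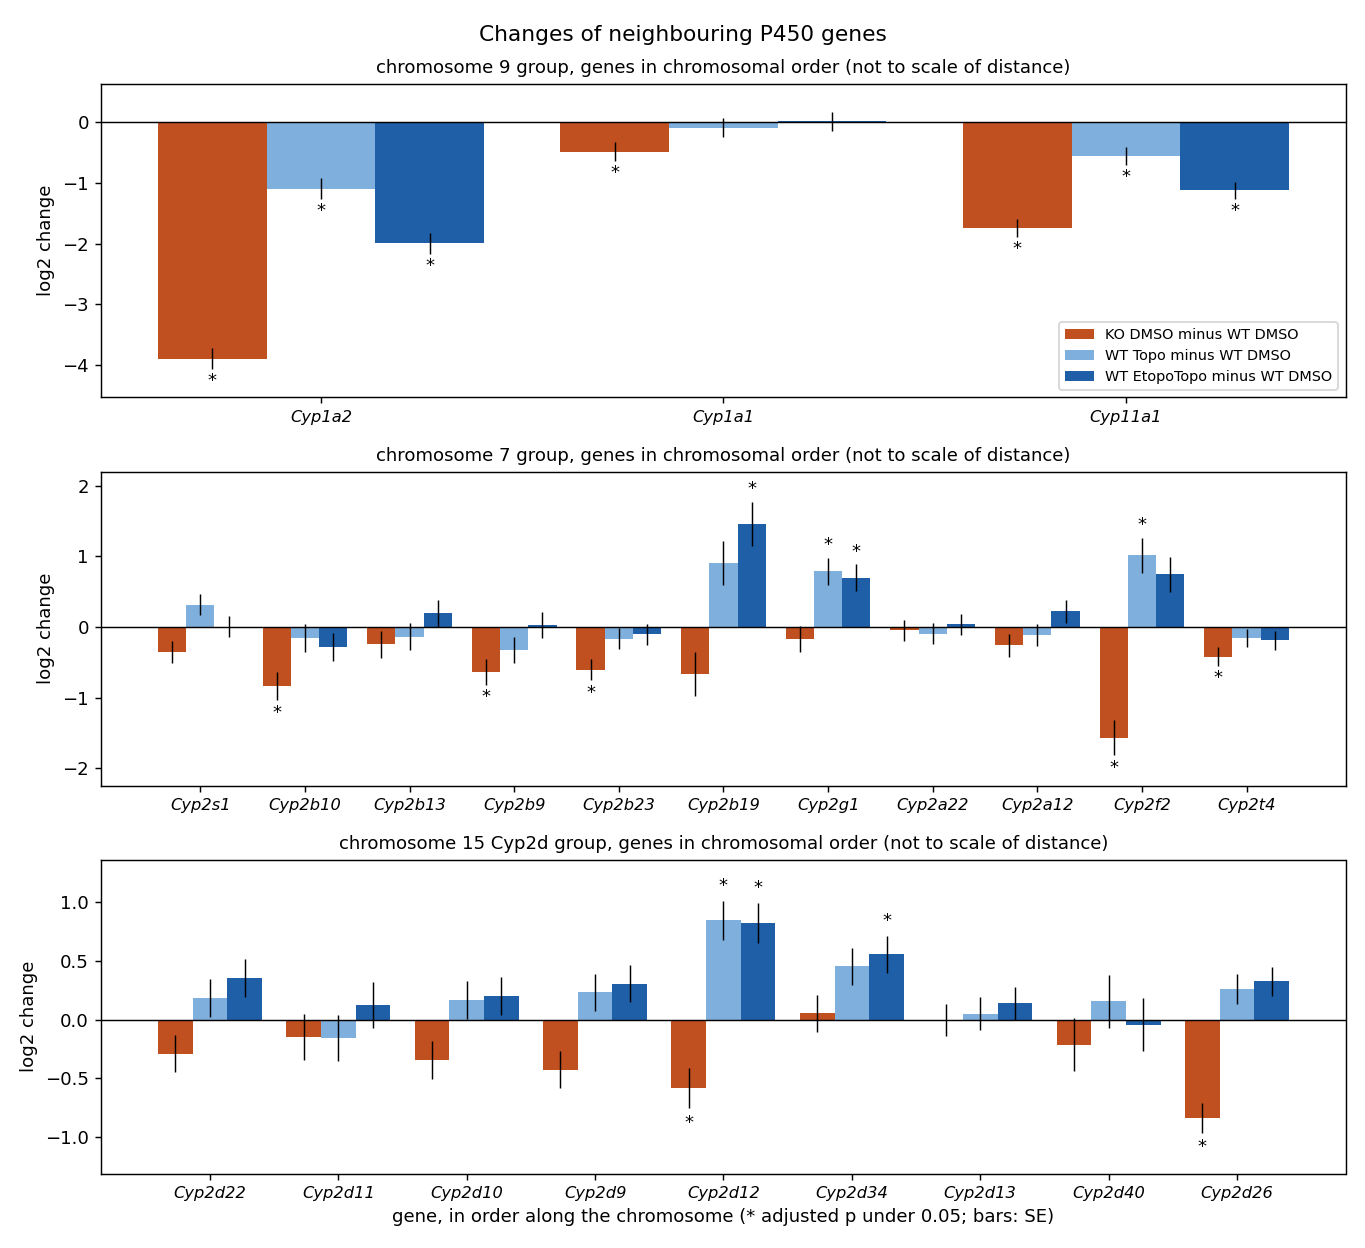
Log2 change (y axis, bars with SE) of neighbouring P450 genes in chromosomal order (x axis) for KO DMSO, WT Topo and WT EtopoTopo, each against WT DMSO. On chromosome 9 Cyp1a2 and Cyp11a1 are lower in all 3 comparisons and Cyp1a1 only in KO DMSO, while Cyp2f2 on chromosome 7 is lower in KO DMSO and higher in WT Topo.

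Etopo alone changed 0 members in WT cells and 0 in KO cells (limma adjusted p, 0.00506% and 0% of all genes called). In 14 members all WT Etopo arrays lay above WT DMSO and in 5 below, against 4.32% and 7.31% of all genes. At an unadjusted p under 0.05 (limma), 15 members passed in WT (10 higher, 5 lower) and 6 in KO. No share of all genes is given at that threshold, so these counts are not read as a result about the family. Cyp2d12, a member of the Cyp2d group of drug-oxidising enzymes, read 7.12, 7.23 and 6.86 in WT Etopo against 6.56, 6.31 and 6.02 in WT DMSO, a change of 0.77 ± 0.17 (adjusted p = 0.23). Cyp1a2 read 9.30, 9.31 and 8.9996 in WT Etopo, all below WT DMSO, a change of -0.55 ± 0.18 (adjusted p = 0.532).

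Topo in WT cells raised 7 members and lowered 2 (limma), which is 11.1% of members against 2.21% of all genes (0.83% higher and 1.38% lower). The comparison uses the same WT DMSO arrays as KO against WT, so any deviation of those arrays enters both. Cyp1a2 read 8.60, 8.64 and 8.75 in WT Topo, below all WT DMSO and WT Etopo arrays, a fall by 1.09 ± 0.18 (limma adjusted p = 0.00232). Cyp11a1 read 7.63, 7.64 and 7.68 and fell by 0.56 ± 0.15 (adjusted p = 0.0454), a call lost in 8 of 15 alternatives (adjusted p up to 0.477). All WT Topo arrays of both genes lay below WT DMSO and above KO DMSO.

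The other members called with Topo were higher. Cyp2f2 read 12.69, 12.45 and 12.58, above all WT DMSO arrays, a rise of 1.02 ± 0.25 (limma adjusted p = 0.0311) beside the fall by 1.57 in KO. The call was lost in 9 of 15 alternatives (0.90 to 1.09, adjusted p up to 0.29), among them those that left out any 1 of the 6 arrays. Cyp2d12 read 7.24, 7.0026 and 7.18, a rise of 0.85 ± 0.17 (adjusted p = 0.00914), beside the fall by 0.58 in KO. Cyp4f15, a fatty acid hydroxylase, read 7.93, 8.04 and 8.32 against 7.10, 7.49 and 7.25 in WT DMSO, a rise of 0.82 ± 0.17 (adjusted p = 0.011).

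Cyp2g1 read 12.57, 12.61 and 12.41 with Topo against 11.73, 11.75 and 11.75 in WT DMSO, a rise of 0.79 ± 0.19 (limma adjusted p = 0.0285), lost in 9 of 15 alternatives (adjusted p up to 0.294). Cyp2j9 and Cyp2j6, close copies that make epoxides of arachidonic acid, rose by 0.75 ± 0.16 and 0.72 ± 0.14 (adjusted p = 0.0124 and 0.0078). Cyp27a1 rose by 0.49. In all 9 called members the WT Topo arrays lay apart from WT DMSO.

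Markers of tuft-like epithelium, a chemosensory MEC subset, were higher in the same arrays. Of 13 markers 9 rose with Topo and 12 with EtopoTopo, against 0.83% and 3.6% of all genes. The summed level of the tuft markers was 13.06 to 13.37 in WT DMSO and 13.70 to 14.003 in WT Etopo. It was 14.06 to 14.25 in WT Topo and 14.34 to 14.48 in WT EtopoTopo. With Topo in WT the macrophage marker Adgre1 fell by 1.14 and the thymocyte marker Thy1 by 0.79 (limma adjusted p = 0.00326 and 0.011). The other markers of those lists, each of 14 genes, were not called, and 1.38% of all genes were called lower. The part of these cells in the P450 changes was not tested. The Topo count rests on few arrays: it was 3 to 6 when any 1 array was left out, with 5 when that was WT DMSO 1, 4 for WT DMSO 3 or WT Topo 2 and 3 for WT Topo 1. It was 1 (Cyp2d12) without the 3 arrays labelled male.

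**Figure D4:**
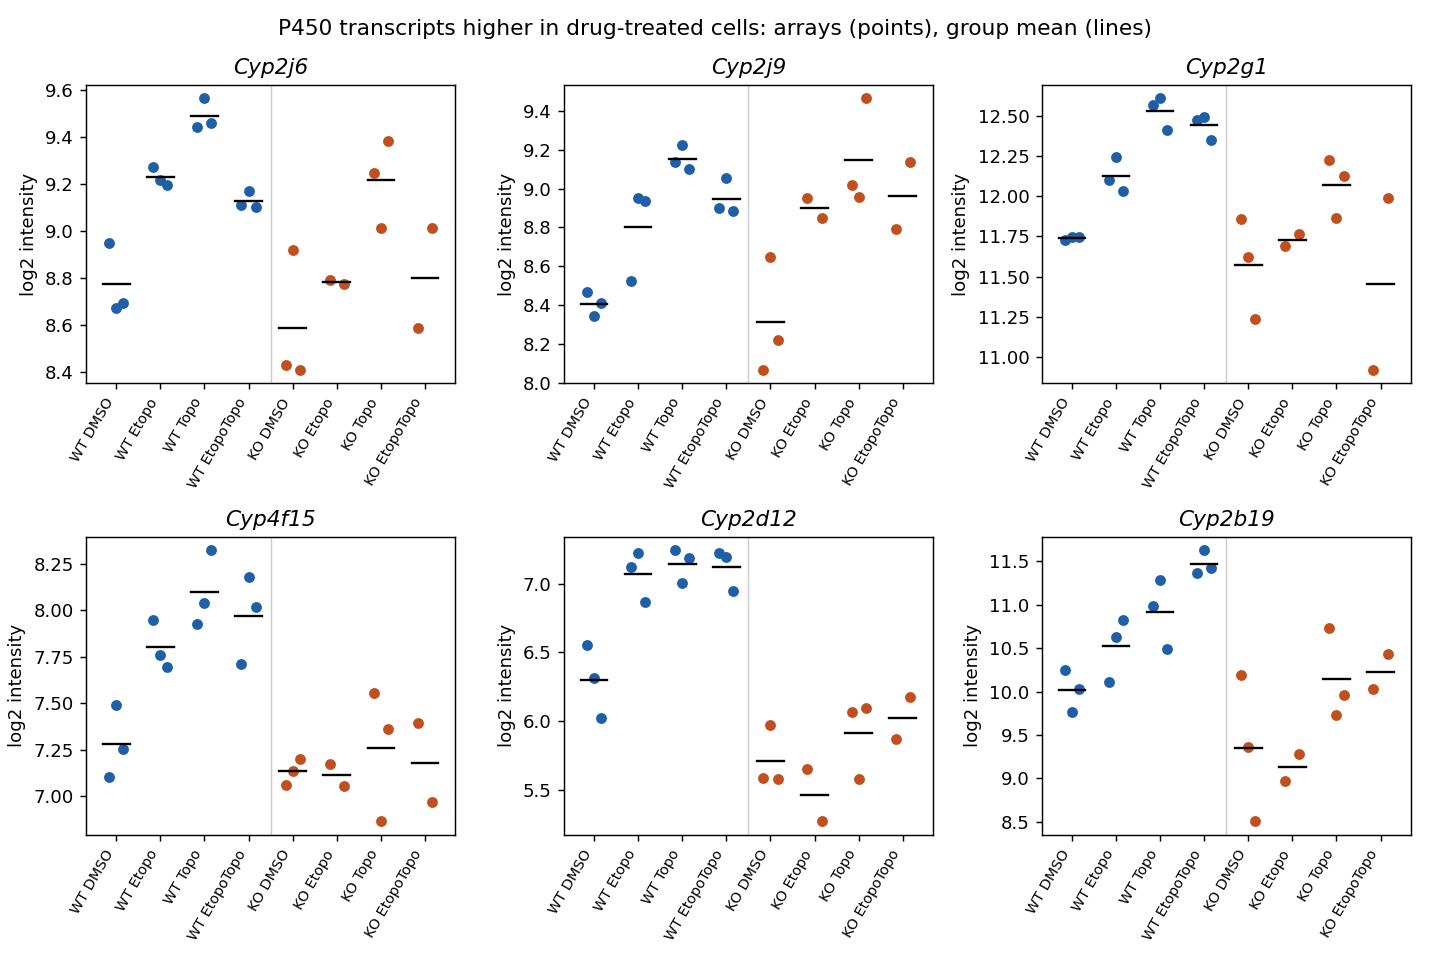
Log2 intensity (y axis) of 6 P450 genes on each array (points) in the 8 groups (x axis), with group means as lines. In WT cells all 6 lie higher with Topo than with DMSO, and Cyp2b19 lies highest with EtopoTopo at 11.37 to 11.63.

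Both drugs together raised 10 members and lowered 3 in WT cells (limma), 16% of members against 10.9% of all genes (3.6% higher and 7.28% lower). Of the 1190 receptor genes 125 were called higher and 1 lower, with a median of 0.31 and 1118 above 0. Their median level was 5.39 to 5.72 on the WT EtopoTopo arrays and 5.04 to 5.40 in WT DMSO, while the spread of log2 values was 4.32 to 4.66 and 4.56 to 4.92. The part of this shift in the members' rises was not tested. Cyp1a2 read 7.37, 7.85 and 8.05, below every other WT group, a fall by 2.00 ± 0.18 or 4.00-fold (limma adjusted p = 2.53e-06). Cyp11a1 read 7.29, 6.81 and 7.15 and fell by 1.12 ± 0.15 (adjusted p = 5.61e-05). Cyp2e1 read 6.35, 6.35 and 6.34, a tight group below all WT DMSO arrays, and fell by 0.68 ± 0.14 (adjusted p = 0.00348). Against the same WT DMSO arrays the KO changes of these genes were -3.90, -1.74 and -1.01.

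Markers of other cells moved in the same comparison, where 7.28% of all genes were called lower and 3.6% higher. Of 14 macrophage and dendritic cell markers 4 fell (Adgre1 by 1.36, C1qb by 1.25, C1qa by 0.53 and Xcr1 by 0.55) and 0 rose, and their summed level was 12.71 to 12.85 in WT EtopoTopo against 13.03 to 13.35 in WT DMSO. Of 14 thymocyte markers Thy1 and Cd4 fell, by 1.31 and 1.01, and the summed stroma and endothelium level was 11.85 to 11.93 against 12.15 to 12.25. The part of these cells in the falls of Cyp1a2, Cyp11a1 and Cyp2e1 was not tested.

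Cyp2b19, the epidermal P450 that makes epoxides of arachidonic acid in keratinocytes, read 11.37, 11.63 and 11.42 against 10.25, 9.76 and 10.03 in WT DMSO. It rose by 1.46 ± 0.31 or 2.75-fold (limma adjusted p = 0.00428), with no overlap. Cyp3a25 rose by 0.86 ± 0.18 (adjusted p = 0.00467), Cyp2d12 by 0.82 ± 0.17 (adjusted p = 0.00335), Cyp2g1 by 0.70 ± 0.19 (adjusted p = 0.0198) and Cyp4f15 by 0.69 ± 0.17 (adjusted p = 0.0107). Cyp2j13, Cyp27a1, Cyp2d34, Cyp2j9 and Cyp4f13 rose by 0.35 to 0.67.

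Cyp2f2 read 12.64, 12.17 and 12.11 with both drugs, above all WT DMSO arrays but short of the threshold (0.75 ± 0.25, limma adjusted p = 0.055). The falls of Cyp1a2 and Cyp11a1 were the calls that held in all 17 settings. The count was 4 with age as a covariate, 5 over the arrays of 4 weeks (Cyp27a1, Cyp2d12 and Cyp3a25 higher, Cyp1a2 and Cyp11a1 lower), 3 without WT EtopoTopo 1 and 2 (Cyp2j13 higher, Cyp1a2 and Cyp11a1 lower), 8 without the arrays labelled male and 8 without WT EtopoTopo 2. The 4-week arrays hold 1 WT DMSO array, and leaving out WT EtopoTopo 1 and 2 leaves 1 treated array, so in both the lone array is assumed to vary like the other groups.

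In KO cells Topo raised 2 members and lowered 0 (limma, 2.47% of members against 1.03% of all genes, 0.253% higher and 0.78% lower). In 14 members all KO Topo arrays lay above KO DMSO and in 2 below, against 7.62% and 8.79% of all genes. The median change was 0.16 over members, with 68 of 81 above 0, and 0.17 over the receptor genes, with 1049 of 1190 above 0. Cyp2j9 read 9.02, 8.96 and 9.46 against 8.07, 8.65 and 8.22 in KO DMSO, a rise of 0.84 ± 0.16 (limma adjusted p = 0.0134). Cyp2j6 read 9.25, 9.01 and 9.38 against 8.43, 8.92 and 8.41, a rise of 0.63 ± 0.14 (adjusted p = 0.0291). Their changes with Topo in WT were 0.75 and 0.72, and the difference between genotypes did not pass (0.09 ± 0.22 and -0.09 ± 0.20, adjusted p = 0.998 for both). Both calls were lost when KO DMSO 1, KO DMSO 3 or KO Topo 3 was left out and when the fit held these groups alone. Tuft markers moved in the same arrays: Gnat3, Alox5ap, Rgs13 and Gng13, 4 of 13, rose by 0.69 to 1.05, and the summed level was 13.84 to 14.17 against 13.11 to 13.49 in KO DMSO. The T cell genes Cd4 and Thy1 fell by 1.03 and 0.88. The part of these cells in the Cyp2j changes was not tested.

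Both drugs in KO cells raised 14 members and lowered 3 (limma), 21% of members against 22.8% of all genes (11.1% higher and 11.7% lower), a share near the background. After quantile normalization the split was 6 higher and 4 lower. Cyp26a1 read 7.44 and 8.56 against 9.79, 9.64 and 10.63 in KO DMSO, a fall by 2.02 ± 0.43 (limma adjusted p = 0.00636). Cyp4f39, an epidermal hydroxylase of very long fatty acids, and Cyp39a1, an oxysterol hydroxylase, fell by 0.64 and 0.48. The largest rises were those of Cyp2c37 (0.94 ± 0.27, adjusted p = 0.0221) and Cyp2j13 (0.77 ± 0.15, adjusted p = 0.00505). Cyp2a22 was called higher too, but its means of 4.05 and 4.80 both lay below the receptor median of 5.32, so no size is given. Of the MEC markers Krt5, Foxn1, Aire, Cldn4 and Krt14 fell by 0.66 to 1.13, and the others were not called. The summed MEC marker level was 15.09 and 15.70 against 15.80 to 15.89 in KO DMSO. Markers of other cell types were called in both directions, and the part of these cells in the P450 changes was not tested.

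The P450 calls with both drugs in KO cells depended on single arrays and on the fit: 0 remained with age as a covariate or with these groups alone. Without KO EtopoTopo 1, whose values span a narrow range, 0 members were called, and without KO EtopoTopo 2, 36 were. Each of these fits leaves 1 treated KO array, assumed to vary like the other groups. The share of all genes called in these fits is not given, so their counts are not read as a result about the family. The count was 10, 8 and 6 without KO DMSO 1, 2 and 3. The median member change was 0.30 against 0.06 for all genes, and 0.49 for the receptor genes, of which 499 of 1190 were called higher and 1 lower. The receptor median was 5.98 on KO EtopoTopo 1 and 5.39 on KO EtopoTopo 2, against 5.13 to 5.16 in KO DMSO. Of all 22 arrays Cyp2c37 (8.38) read highest on KO EtopoTopo 1, and the part of this shift in the members' rises was not tested.

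**Figure D5:**
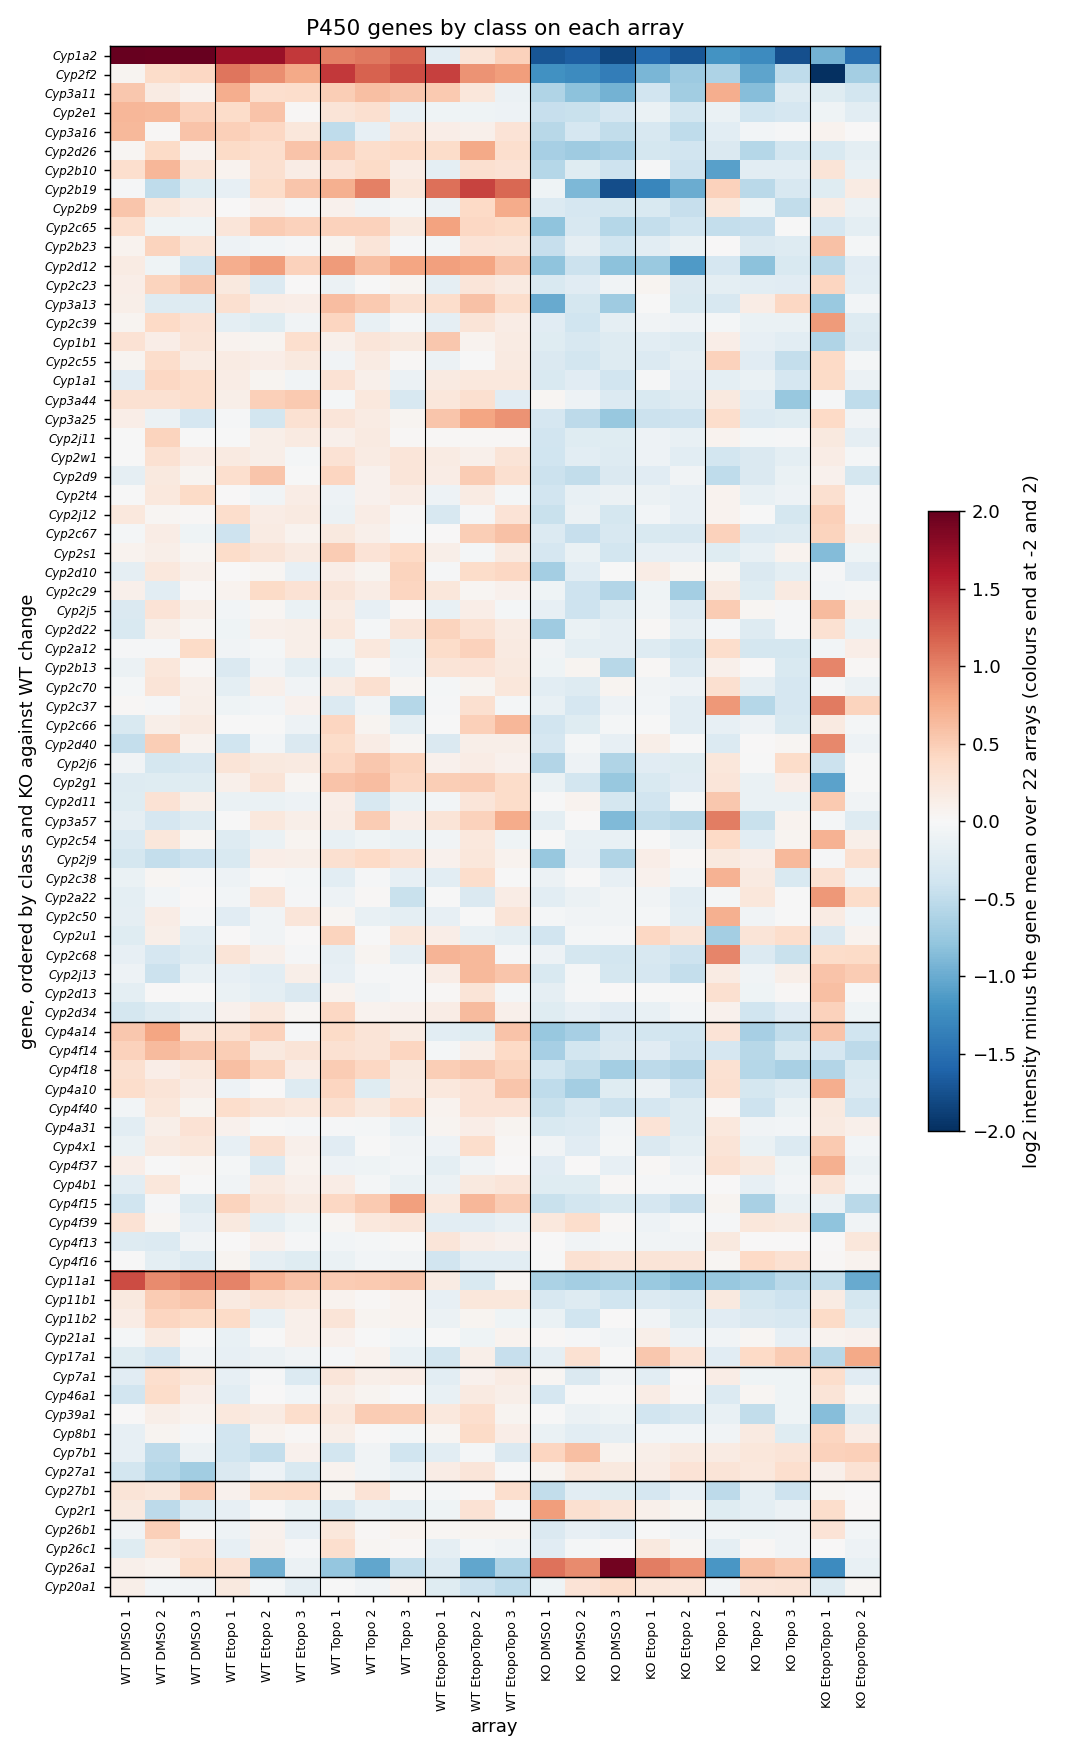
Log2 intensity of each of the 81 P450 genes (rows, by class) on each of the 22 arrays (columns), minus the mean of that gene over all arrays. Colours end at -2 and 2, the wild-type arrays stand to the left and the KO arrays to the right, and the Cyp1a2 and Cyp11a1 rows show the WT groups in descending order from DMSO to EtopoTopo.

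The measured change with the drugs differed between the genotypes for 3 members by a test of the interaction (KO effect minus WT effect). With both drugs it was 2.51 ± 0.27 for Cyp1a2 (limma adjusted p = 5.38e-05), 1.02 ± 0.22 for Cyp11a1 (adjusted p = 0.0119) and 0.95 ± 0.21 for Cyp2e1 (adjusted p = 0.0165). These 3 are 3.7% of members against 2.46% of all genes (2.35% higher and 0.106% lower). In KO cells their drug changes were 0.51 ± 0.20, -0.10 ± 0.16 and 0.27 ± 0.16, with adjusted p of 0.0672, 0.631 and 0.199. Their KO DMSO levels were already low, at 5.86, 6.47 and 6.02, all below the receptor 95th percentile of 7.10. A further fall has little room to show on such probes. The test therefore cannot tell whether the drugs act differently on these genes without Aire.

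With Topo the interaction was called for Cyp1a2 (1.42 ± 0.25, limma adjusted p = 0.0267), 1.23% of members against 0.0759% of all genes. With Etopo it was called for 0 members and 0% of all genes. At an unadjusted p under 0.05 (limma), 5 members passed with Etopo, and no share of all genes is given at that threshold. The Cyp1a2 interaction with both drugs was called in each of the 21 alternatives (2.14 to 2.79). Without KO EtopoTopo 1 it was the 1 interaction left, as it was without WT EtopoTopo 1 and 2. There were 29 without KO EtopoTopo 2, 5 without WT EtopoTopo 3 and 2 (Cyp1a2 and Cyp2e1) without the arrays labelled male. Where KO EtopoTopo 1 or 2, or both WT arrays, were left out, 1 array stood for its group and was assumed to vary like the others. The share of all genes called in those fits is not given, so the counts do not speak to the family. Quantile normalization gave Cyp1a2 higher and Cyp4f15 lower. The Topo interaction of Cyp1a2 was lost in 11 of 21 alternatives (1.29 to 1.60), among them those without WT DMSO 1 or 3, KO DMSO 1 or 3, KO Topo 1 or 2 and any WT Topo array.

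Of 81 members, 29 were called in none of the 7 comparisons between groups. They include Cyp17a1, Cyp21a1, Cyp7a1, Cyp46a1 (the brain cholesterol 24-hydroxylase) and the orphan Cyp20a1. The highest group mean exceeded 7.10 in 45 members and lay below 5.32 in 7. The file gives no detection call, so a dim member was not taken as unexpressed.

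Other enzymes process the same drugs and steroids. Of 66 listed enzymes of drug and steroid metabolism, chosen with earlier results of these data known, 56 were measured. Of these 31 fell and 3 rose without Aire, against 12% lower and 7.4% higher over all genes. The median change of the 56 was -0.64. The largest falls were those of Hsd3b6 (-2.77 ± 0.29, adjusted p = 3.13e-07), a steroid dehydrogenase of the adrenal, Hsd17b3 (-2.19 ± 0.20, adjusted p = 4.03e-08), which makes testosterone, the glucuronosyltransferase Ugt2b34 (-2.10 ± 0.24, adjusted p = 1.11e-06) and the glutathione transferase Gstm3 (-2.06 ± 0.17, adjusted p = 6.76e-09). Star, which feeds cholesterol to the Cyp11a1 enzyme, fell by 0.65 ± 0.15 (adjusted p = 0.00335). Sult1c2, Nqo1 and Tpmt rose.

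With Topo in WT cells 10 of the 56 rose and 3 fell, against 0.83% and 1.38% of all genes. With both drugs 6 rose and 15 fell, against 3.6% and 7.28% of all genes. Ugt2b34 read 9.52, 9.39 and 9.07 in WT DMSO and 10.97, 10.5001 and 10.83 in WT Topo, a rise of 1.44 ± 0.24 (limma adjusted p = 0.00257). Its change in KO against the same WT DMSO arrays was -2.10. Hsd17b3 read 8.20, 7.56 and 7.63 in WT DMSO, 6.89, 7.27 and 6.84 in WT Topo and 6.37, 6.87 and 6.72 in WT EtopoTopo, with falls by 0.80 ± 0.20 and 1.15 ± 0.20 (adjusted p = 0.0368 and 0.000801). Its interaction with both drugs was 1.74 ± 0.30 (adjusted p = 0.00246), and 6 of the 56 were called so, against 2.46% of all genes. Hsd17b3 read 5.83, 5.40 and 5.59 in KO DMSO, below the receptor 95th percentile of 7.10. It read 6.56 on KO EtopoTopo 1, the array of narrow spread, and 5.84 on KO EtopoTopo 2. A further fall has little room to show at that level. The test therefore cannot tell whether the drugs act differently on Hsd17b3 without Aire.

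Of 21 measured regulators of P450 genes, 5 fell without Aire and 1 rose, against 12% and 7.4% of all genes. Nr0b2, the repressor of bile acid synthesis, fell by 0.84 ± 0.20 (limma adjusted p = 0.00377), Hnf4a, a hepatocyte regulator, by 0.69 ± 0.15 (adjusted p = 0.00249), and Rxrg, Nr1h3 and Ahrr by 0.39 to 0.47, while Nr5a2 rose by 0.55 ± 0.10 (adjusted p = 0.000376). Ahr itself changed by -0.12 ± 0.14 and the drug sensor Nr1i2 (PXR) by 0.30 ± 0.14 (adjusted p = 0.648 and 0.14). With both drugs in WT cells Ahr rose by 0.48 ± 0.14 (adjusted p = 0.0285), and Rxrg and Nr0b2 fell by 0.98 and 0.71. Of 10 measured genes of electron transfer, heme supply and other P450s, Hmox1 alone was called without Aire (a fall by 0.50 ± 0.14, adjusted p = 0.0148).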

How the data were processed

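Per the submitters' processing notes, the authors deposited linear intensities, 1 value per probe set and array, made with RMA in Affymetrix Power Tools (versions not given in the sources used here). RMA already normalizes between arrays, and it gives no detection call. Of 24922 probe sets, 21425 had 1 symbol in the platform annotation, 1399 several and 2098 none, which left 19752 genes. RNA of sorted cells had been amplified before hybridization, per the labels' protocols, which can compress differences. Log2 intensities of all 22 arrays were fitted with limma 3.58.1 in R 4.3.3 with 1 mean per group, 10 contrasts, 14 residual and 7.22 prior degrees of freedom, and Benjamini-Hochberg adjustment over all 19752 genes in each contrast. The threshold was an adjusted p of 0.05, and the fit was tested on simulated data. Full statistics go to called members whose arrays do not overlap between groups: up to 12 lower and 6 higher for KO against WT, up to 8 in each other comparison and 4 per interaction, by size of change. Other members are named within their role, subfamily or neighbourhood, and up to 6 called genes per pathway list and contrast. Members and gene lists were chosen with earlier results of these data known. The labels do not say that replicate numbers pair arrays. Deviations of same-numbered arrays correlated from -0.515 to 0.592, above 0.1 in 9 of 19 pairs. All 3 pairs exceeded 0.1 for Etopo in WT (0.335, 0.358 and 0.592) and Topo in KO (0.412, 0.167 and 0.297). The main fit used no pairing in any comparison. The replicate number entered 1 alternative as a block shared by all groups, which is not a paired fit of those comparisons. The alternatives covered normalization, dim genes, age, samples in the fit, the replicate number and arrays left out. They also held the mean of the probes of a gene and a wider symbol rule. In every comparison these left the values of the members unchanged, so they add little to counts of settings in which a call held. The set without the 3 arrays labelled male was added after seeing the data. Another 7 P450 probe sets with several symbols were left out.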

Additional observations from a re-analysis of the deposited data

Results flagged for a closer look

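The measured drug change differed between Aire KO and WT cells, by a test of the difference itself, in 4 results. With both drugs the difference was 2.51 for Cyp1a2, 1.02 for Cyp11a1 and 0.95 for Cyp2e1 on the log2 scale, and with Topo it was 1.42 for Cyp1a2. In each case the gene fell or read lower in treated WT cells, while its level in KO DMSO was already low. A further fall has little room to show at that level. The test therefore cannot tell whether the drugs act differently on these genes without Aire.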

How the results depend on the processing

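The directions of all 46 named results held in 710 comparisons with alternatives (0 reversed), 142 of which ended the call, and 16 results were called throughout. Named results between groups were chosen with arrays that do not overlap. Leaving out an array could therefore not reverse their direction, and the absence of reversals there is no added support. The counts moved as follows. For KO against WT (33 members) quantile normalization gave 19, and leaving out 1 array gave 19 to 31. For Topo in WT (9) the count was 5 without both arrays of high thymocyte signal, 1 without those labelled male, and 3 to 6 with 1 array left out. For both drugs in WT (13) it was 4 with age as a covariate, 5 over arrays of 4 weeks, 3 without the arrays of conflicting labels, 8 without those labelled male, and 8 to 13 with 1 array left out. For Topo in KO (2) it was 0 over the compared groups alone and without the high thymocyte arrays, and 0 to 3 with 1 array left out. For both drugs in KO (17) it was 0 with age, 0 over the compared groups alone, 10 after quantile normalization, 10 without the high thymocyte arrays, and 0 to 36 with 1 array left out. For the Topo interaction (1) it was 0 without the high thymocyte arrays, 0 without those labelled male, and 0 to 1 with 1 array left out. For the interaction with both drugs (3) it was 1 without the conflicting labels and 1 to 29 with 1 array left out. Where an array was left out, fewer samples entered the fit, and the cause of the other moves was not tested. The share of all genes called in each alternative is not given beside these counts. With the replicate number as a block the counts were 30, 0, 9, 14, 0, 2 and 12 for the 7 comparisons and 0, 1 and 3 for the interactions, none moved by over 1.5 times. For Etopo in WT and Topo in KO, where the numbers track the arrays, the block left the counts at 0 and 2. The block was shared by all groups, while same-numbered arrays deviated in opposite ways for Topo in WT (-0.515, -0.383 and -0.090). These counts therefore do not stand for a paired fit. Dim probes carry little signal over background, which limits what can be seen of members at that level.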
